A study of Macaca mulatta with 8 samples.

Results

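The transcripts described here encode 5 transcription factors of the early embryo: POU5F1, TFAP2C, CDX2, TEAD4 and MYCL. They were measured by every probe set, a group of short probes read as one value, whose only gene symbol in the platform annotation is one of these names. That gave 5 of 12993 genes with a name other than a bare locus number and 8 of the 52865 probe sets on the array: 2 each for CDX2, TFAP2C and MYCL, and 1 each for POU5F1 and TEAD4. The RNA came from rhesus macaque oocytes at metaphase II, the arrested stage in which a ripe egg awaits the sperm. Oocytes matured in culture (in vitro) were read on 4 arrays, and oocytes matured inside the animal (in vivo) on another 4. For each array, 4 oocytes were pooled and their RNA was amplified in 2 rounds. The labels give no animal, age, hormone treatment or culture medium for either group. The arrays are described as biological replicates, but the donor animals of each pool are not named, so a p-value here reflects only how much the pools varied.

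A metaphase II oocyte is transcriptionally silent, and the embryo runs on RNA stored in it until its own genome is switched on. In the blastocyst, POU5F1 (OCT4) is a core factor of the pluripotent inner cell mass. CDX2 marks the trophectoderm, the outer layer that forms the placenta. TEAD4 is the DNA-binding partner of the Hippo pathway coactivator YAP1, and in the mouse it acts upstream of Cdx2. TFAP2C, an AP-2 factor, takes part in trophectoderm and germ cell programmes. MYCL is a member of the MYC family, whose proteins bind DNA as dimers with MAX.

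Values are MAS5 signals, a linear brightness scale on which all 8 arrays had a 2% trimmed mean of about 149, so they give a transcript's share of the amplified RNA. In such pools, fewer cells that carry a transcript and less of it per cell cannot be told apart. An array's background, the 95th percentile among 59 controls whose transcripts were not added, ran from 19.6 to 23.8 in vitro and from 15.7 to 27.0 in vivo. Oocyte markers fitted the label: 15 of the 17 named on the array were above background on all 8 arrays, with summed signals of 51253 to 63208 in vitro and 54833 to 73353 in vivo. Of 18 granulosa and cumulus markers, 10 were above background on all 8 arrays, with sums of 20790 to 28440 in vitro and 21050 to 25224 in vivo, and NR5A1 was on none. Of the 17 that were tested, 8 had a higher mean log2 signal in vitro and 9 a lower one, with a median difference of -0.03 (in vitro minus in vivo). At an unadjusted limma p under 0.05 there were 5 of the 17, all of them higher in vitro. That is a share of 29.4%, beside 11.8% of all named genes. In that list INHBA and STAR were higher in vitro (limma adjusted p = 0.00226 and 0.00861). Neither passed without the intensity trend in the variance model, and STAR did not pass without in vitro replicate 1, 2 or 3. Theca, stroma and endothelium markers summed to 1140 to 1757 in vitro and 1106 to 1316 in vivo, with CYP17A1 and KDR on no array above background. None of 9 blood and immune markers was above background on all 8 arrays, and their sums were 104 to 219 in vitro and 226 to 300 in vivo. The part of other cells in the results below was not tested.

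POU5F1 was well above background in every pool, at its single probe set MmuSTS.2285.1.S1_at. Its signal was 1803, 1497, 1354 and 1443 in in vitro replicates 1 to 4, against 1540, 1442, 980 and 925 in in vivo replicates 1 to 4. In vitro replicate 1 was the highest of the 8 arrays and in vivo replicates 3 and 4 were the lowest, while the remaining arrays overlapped. The means were 1524 ± 195 in vitro and 1222 ± 314 in vivo (SD, n = 4 each). On the log2(signal + 8.2) scale used for all differences, which understates changes of dim transcripts, in vitro minus in vivo was 0.35 ± 0.20 (SE) with a 95% interval of -0.08 to 0.77. The difference did not pass the test (limma adjusted p = 0.587), and the interval corresponds to 0.943-fold to 1.71-fold. In human, POU5F1 has processed pseudogenes of nearly the same sequence. Whether the probe set also reads such copies in the macaque was not tested.

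TFAP2C was the least variable of the factors at the probe set MmugDNA.35011.1.S1_at. Signals there were 975, 945, 1142 and 1032 in vitro, against 774, 969, 699 and 823 in vivo. Of the in vitro arrays, 3 lay above every in vivo array, and in vivo replicate 2 alone reached into the in vitro range. The mean was 1023 ± 86.9 in vitro and 816 ± 114 in vivo (SD, n = 4 each). This is a log2 difference of 0.33 ± 0.17 (SE), with a 95% interval of -0.04 to 0.70, and it did not pass (limma adjusted p = 0.540). Its other probe set, MmugDNA.5022.1.S1_at, read 80.5, 79.1, 115 and 106 in vitro, against 46.6, 98.4, 104 and 122 in vivo. There the groups overlapped widely, in vivo replicate 1 was the lowest array, and the log2 difference was 0.09 (95% interval -0.55 to 0.73, limma adjusted p = 0.945). Without in vivo replicate 1 that difference was -0.18.

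CDX2 had a lower mean signal in vitro, and the difference did not pass the test. At the probe set MmunewRS.388.1.S1_s_at the signal was 132, 114, 178 and 101 in vitro, against 148, 290, 434 and 204 in vivo. The suffix _s_at marks a probe set whose probes match more than one transcript. In vitro arrays lay below in vivo arrays in 15 of 16 cross-group pairs, the exception being in vitro replicate 3 over in vivo replicate 1. The mean was 131 ± 33.8 in vitro and 269 ± 125 in vivo (SD, n = 4 each), a log2 difference of -0.91 ± 0.31 (SE). Its 95% interval, not adjusted for the number of probe sets, was -1.57 to -0.25 (0.338-fold to 0.838-fold), and the limma adjusted p was 0.332. The value was -0.65 without the brightest array, in vivo replicate 3. It was -1.15 when in vivo replicate 1 was left out, with a limma adjusted p of 0.155.

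The second CDX2 probe set, MmugDNA.29651.1.S1_at, was dim. It read 56.6, 46.6, 37.1 and 25.6 in vitro, against 16.9, 77.7, 54.7 and 52.5 in vivo. In vivo replicate 1 was below background there, and the groups overlapped. The log2 difference was -0.15 ± 0.40 (SE), with a 95% interval of -1.0 to 0.70 (limma adjusted p = 0.928), and it was 0.08 without in vivo replicate 2. In vivo replicate 1 was the lowest in vivo array at both CDX2 probe sets.

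TEAD4 was measured by the probe set MmuSTS.4099.1.S1_at. Its signal was 155, 74.9, 73.3 and 57.0 in vitro, against 97.0, 115, 206 and 137 in vivo. In vitro replicate 1 stood among the in vivo values, and the other in vitro arrays lay below all 4 in vivo arrays. The means were 90.0 ± 43.9 in vitro and 139 ± 47.8 in vivo (SD, n = 4 each), with a log2 difference of -0.62 ± 0.32 (SE) and a 95% interval of -1.31 to 0.06. It did not pass (limma adjusted p = 0.529). Leaving out in vitro replicate 1 gave -0.90 with an adjusted p of 0.561, and leaving out in vivo replicate 3 gave -0.42.

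MYCL was also lower in vitro in most pairs of arrays at the probe set MmuSTS.3221.1.S1_at, and it did not pass the test. There it read 80.5, 108, 56.9 and 78.8 in vitro, against 166, 96.5, 117 and 235 in vivo. The in vitro array was the lower one in 15 of 16 cross-group pairs, with in vitro replicate 2 above in vivo replicate 2 as the exception. Its mean was 80.9 ± 20.7 in vitro and 154 ± 61.4 in vivo (SD, n = 4 each). The log2 difference was -0.81 ± 0.30 (SE), with an unadjusted 95% interval of -1.45 to -0.17, and the limma adjusted p was 0.370. Leaving out in vivo replicate 4 gave -0.59, and leaving out in vivo replicate 2 gave -1.0. The other MYCL probe set, MmugDNA.9564.1.S1_at, was too dim for the test. It was above background on 1 in vitro array and 2 in vivo arrays, at 6.4, 9.7, 13.6 and 46.3 in vitro and 37.7, 40.5, 4.5 and 10.7 in vivo. In a fit of all probe sets without the filter on dim values its log2 difference was -0.20, with a 95% interval of -1.37 to 0.98 (limma adjusted p = 0.967).

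**Figure D1:**
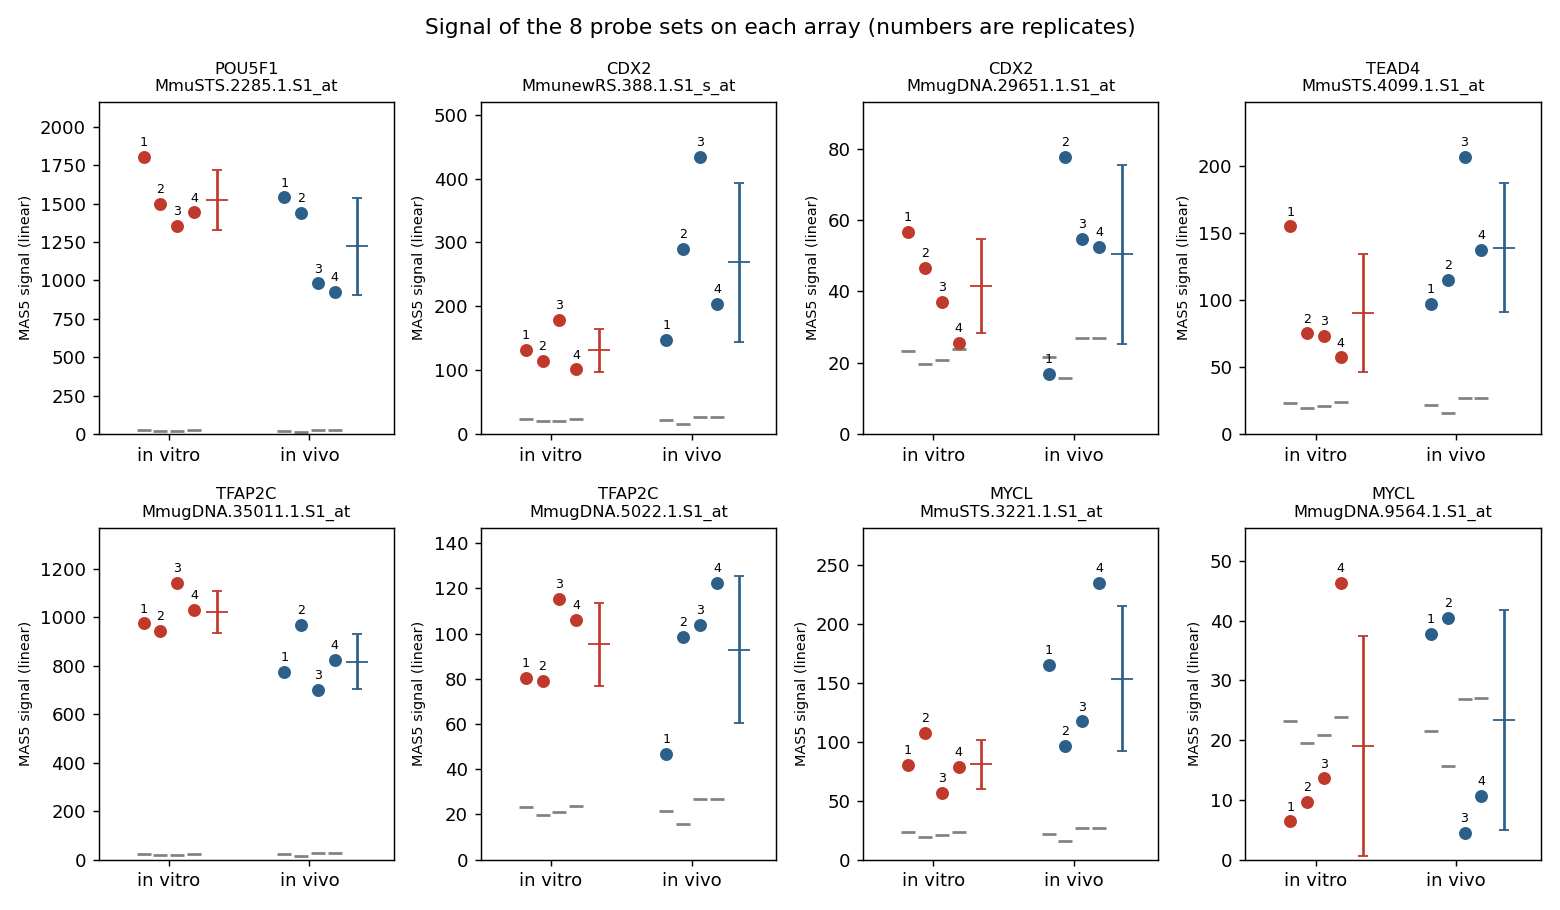
Each panel plots the MAS5 signal (linear, vertical axis) of 1 probe set in the 4 in vitro arrays (red) and the 4 in vivo arrays (blue), with replicate numbers, each array's background as a grey dash, and the mean ± SD beside the points. At CDX2 (MmunewRS.388.1.S1_s_at) and MYCL (MmuSTS.3221.1.S1_at) 15 of 16 cross-group pairs have the in vitro array lower, and no panel has groups that do not overlap.

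Of the 7 probe sets bright enough to be tested, 0 passed a limma adjusted p of 0.05, against 0.144% of all 26383 tested probe sets (0.102% higher and 0.0417% lower in vitro). At an unadjusted limma p under 0.05 there were 2 of 7, CDX2 with 0.00993 and MYCL with 0.0162, both lower in vitro. The share over all tested probe sets was 10.2% in either direction, 4.7% higher and 5.53% lower in vitro. The groups did not overlap at 0 of the 7, against 6.28% of all tested probe sets (3.17% higher and 3.11% lower in vitro). In the unfiltered fit that holds the dim MYCL probe set, 0.0985% of 52766 probe sets passed. Over the 7 tested probe sets the median log2 difference was -0.15, and over all tested probe sets it was 0.01. Median sizes, taken without the sign, were 0.35 and 0.26. Since the 5 genes were picked with earlier results of these arrays known, these figures are a description of them.

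By direction, POU5F1 and TFAP2C had log2 differences above 0 at their tested probe sets, and CDX2, TEAD4 and MYCL had differences below 0 at theirs. The dim MYCL probe set, above background on 3 of 8 arrays, gives no direction. For the brightest probe set of each factor, that direction stayed with each of the 8 arrays left out in turn. The ranges were 0.22 to 0.47 for POU5F1, 0.26 to 0.41 for TFAP2C, -1.15 to -0.65 for CDX2, -0.90 to -0.42 for TEAD4 and -1.0 to -0.59 for MYCL. None of these fits brought a limma adjusted p under 0.05 at any of the 8 probe sets. For the second probe sets of CDX2, TFAP2C and MYCL the sign turned with at least 1 array left out.

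**Figure D2:**
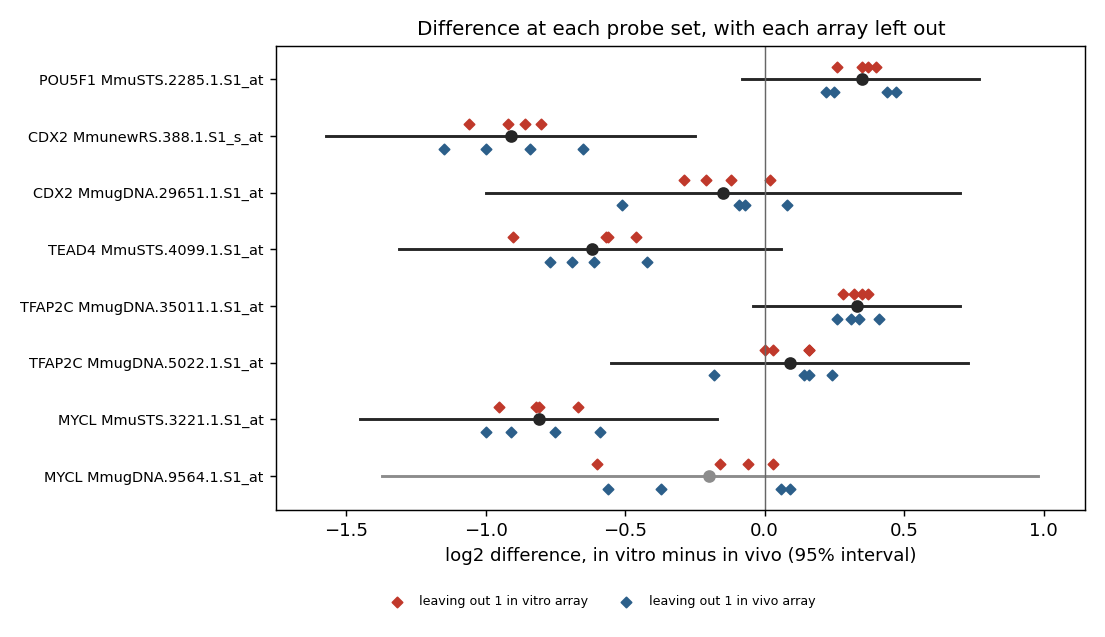
The horizontal axis is the log2 difference, in vitro minus in vivo, of each probe set (circle) with its 95% interval (line), unadjusted and in grey for the MYCL probe set under the filter. Diamonds give the value with 1 in vitro array (red, above the line) or 1 in vivo array (blue, below the line) left out, and for CDX2 (MmunewRS.388.1.S1_s_at) they run from -1.15 to -0.65.

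The probe sets of a gene did not track each other closely over the 8 arrays. Pearson's r between the 2 log2 profiles, a description over 8 arrays that share their scaling, was 0.53 for CDX2 (Spearman's rho 0.52), 0.30 for TFAP2C (0.31) and -0.05 for MYCL (-0.29). The gap between the 2 CDX2 probe sets averaged 1.5 log2 units in vitro and 2.26 in vivo, a change of -0.76 (exact two-sided permutation p = 0.114 over 70 assignments). For TFAP2C the gap differed between groups by 0.24 (exact permutation p = 0.40) and for MYCL by -0.62 (exact permutation p = 0.457). Adjusted over these 3 comparisons the p-values were 0.343, 0.457 and 0.457, and the smallest p the design allows before adjustment is 0.0286. After adjustment over 3 comparisons a difference at 1 gene alone could not pass 0.05, so these tests do not tell whether the 2 probe sets of a gene differ.

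The in vitro pools varied less among themselves at 6 of the 7 tested probe sets, TEAD4 being the exception. At all tested probe sets the same held for 66.3%. The SD of the log2 values was 0.33 in vitro and 0.65 in vivo for CDX2, 0.18 and 0.37 for POU5F1, 0.12 and 0.20 for TFAP2C and 0.34 and 0.54 for MYCL. For TEAD4 it was 0.57 in vitro and 0.44 in vivo. The highest in vivo array was 2.94 times the lowest for CDX2 and 1.39 times for TFAP2C.

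No single array set the order of all factors. In vivo replicate 3 was the brightest array for CDX2 and TEAD4 and the dimmest for TFAP2C. In vivo replicate 4 was the brightest for MYCL and the dimmest for POU5F1. In vitro replicate 4 was the dimmest for both CDX2 and TEAD4. Over the 8 arrays r was 0.72 between CDX2 and TEAD4 (rho 0.64), -0.63 between POU5F1 and CDX2 (rho -0.67) and -0.75 between TFAP2C and MYCL (rho -0.90). With the group means removed these became 0.54, -0.40 and -0.44. Between TEAD4 and TFAP2C r was -0.68 (rho -0.62), and -0.45 with the group means removed. Between CDX2 and MYCL r was 0.20 (rho 0.38), and -0.66 with the group means removed. They are descriptions over 8 arrays that share their scaling, out of 10 pairs computed.

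A control for transcript length varied between the arrays. The ratio of 5' to 3' EEF1A1 signal, which is low where transcripts were copied short, was between 0.204 and 0.279 in vitro. In vivo it was 0.370, 0.130, 0.368 and 0.0779 in replicates 1 to 4, so in vivo arrays stood on both sides of the in vitro range (exact two-sided permutation p = 0.60 for the log2 means, n = 4 each). The actin control spread less over the in vivo arrays. In vivo replicates 2 and 4 were again the lowest in vivo arrays, and replicate 2 lay below the in vitro range. The log2 ratio of 5' to 3' actin signal was -6.75 to -5.68 in vitro, against -6.23, -7.23, -5.68 and -6.75 in vivo (exact two-sided permutation p = 0.543). Only the EEF1A1 ratio is used below. Across the 8 arrays the correlation of the log2 EEF1A1 ratio with the log2 signal at the brightest probe set was -0.09 for CDX2, -0.06 for TEAD4, -0.16 for TFAP2C, -0.39 for MYCL and 0.37 for POU5F1, as a description. At the second probe sets it was -0.54 for CDX2, -0.51 for TFAP2C and 0.01 for MYCL. With this ratio as a covariate, an alternative chosen after seeing the data, the log2 differences at the brightest probe sets were -0.93 for CDX2, -0.64 for TEAD4, -0.75 for MYCL, 0.36 for TFAP2C and 0.31 for POU5F1. None passed, and the limma adjusted p-values were 0.162, 0.350, 0.231, 0.298 and 0.456. In that fit 292 of all tested probe sets passed, against 38 without the covariate.

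**Figure D3:**
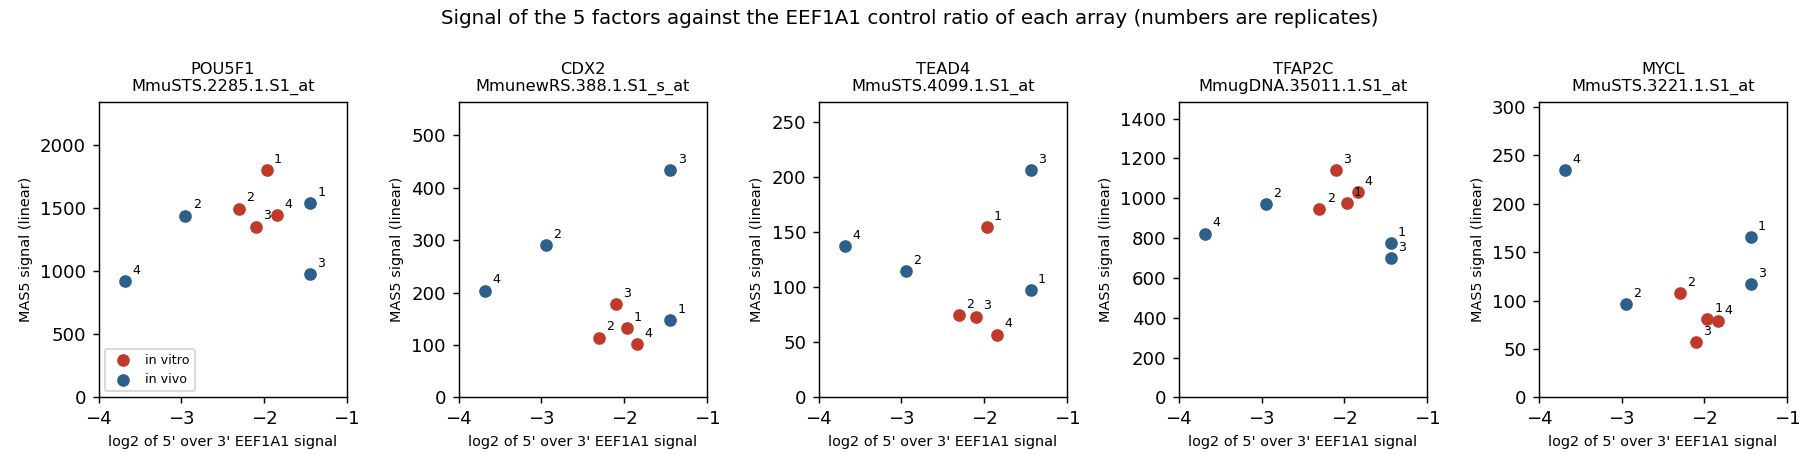
Each panel plots the MAS5 signal (linear, vertical axis) of the brightest probe set of 1 factor against the log2 ratio of 5' to 3' EEF1A1 control signal (horizontal axis), for in vitro arrays (red) and in vivo arrays (blue) with replicate numbers. The in vitro arrays lie between -2.30 and -1.84 on that axis, and in vivo replicates 2 and 4 lie below them at -2.95 and -3.68.

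Relatives of the 5 factors, which could share targets or dimer partners with them, gave no call either. Among the other TEAD genes, which bind the same coactivators, TEAD2 had log2 differences of -0.56, -0.12, -0.73 and 0.48 at its 4 tested probe sets. The values of -0.12 and -0.73 come from 2 probe sets made to the same target, of which one carries the suffix _x_at for probes that can cross-hybridise. TEAD1 had -0.06 at 58.0 ± 26.8 in vitro and 57.3 ± 4.84 in vivo (SD, n = 4 each). TEAD3 was not analysed here.

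Of the AP-2 genes, TFAP2D was read strongly at both probe sets. It had 3678 ± 624 in vitro and 3521 ± 1039 in vivo at MmuSTS.2878.1.S1_at (SD, n = 4 each), with a log2 difference of 0.09. The other TFAP2D probe set had 0.30, and neither passed (limma adjusted p = 0.914 and 0.637). TFAP2A was close to background at both tested probe sets, and one had a log2 difference of -0.55 (limma adjusted p = 0.748). The other was above background on 3 of 4 in vitro arrays and 1 of 4 in vivo arrays. No size is given for it (limma adjusted p = 0.477). TFAP2B had 0.32 at a signal of 30.8 ± 19.1 in vitro and 23.0 ± 15.5 in vivo, above background on 2 of 4 arrays in each group.

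In the MYC family, MYC itself scattered widely between pools. Its signals were 127, 63.7, 2290 and 189 in vitro, against 143, 828, 348 and 86.7 in vivo. In vitro replicate 3 was far brighter than the rest and in vivo replicate 2 came next, so the log2 difference of 0.01 carried a 95% interval of -1.82 to 1.85. MYCN had -0.33 at its tested probe set, with 320 and 263 in in vivo replicates 1 and 3 and 20.3 and 11.3 in in vivo replicates 2 and 4. The dimer partner MAX was bright, at 4591 ± 911 in vitro and 5940 ± 2333 in vivo at its brightest probe set. Its 5 probe sets had log2 differences of -0.32, -0.17, -1.15, -0.50 and 0.20. The groups did not overlap at the third and the fourth of these. The value of -1.15 belongs to MmugDNA.24731.1.S1_at, where the signal was 622, 1009, 1054 and 798 in vitro, against 1292, 1718, 3059 and 1902 in vivo. That difference did not pass (95% interval -1.68 to -0.61, limma adjusted p = 0.111). CDX1 and CDX4, the caudal relatives of CDX2, were not above background on any array and are given no fold.

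**Figure D4:**
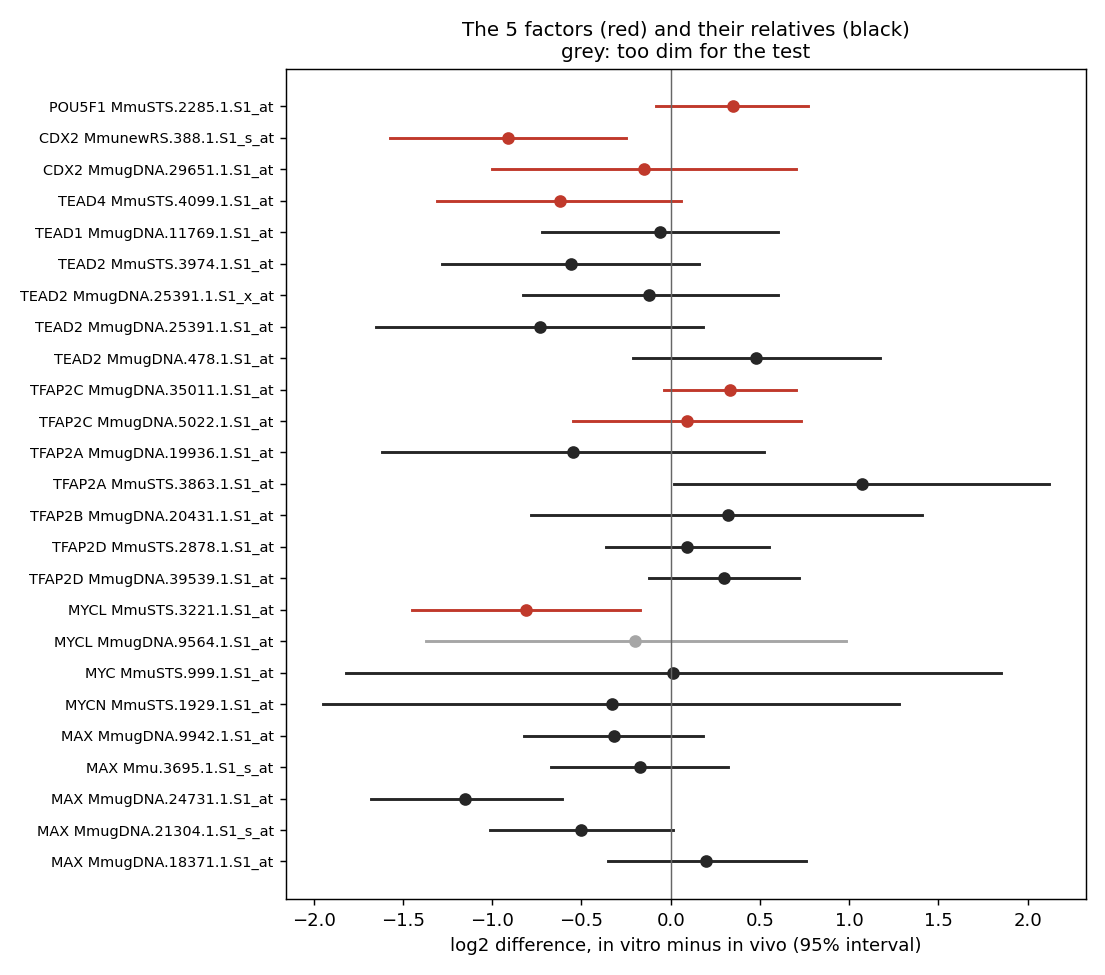
The horizontal axis is the log2 difference, in vitro minus in vivo, with its unadjusted 95% interval, for the tested probe sets of the 5 factors (red) and their relatives (black), and in grey for the MYCL probe set under the filter. The MAX probe sets run from -1.15 to 0.20, and MYC has an interval of -1.82 to 1.85.

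The 5 factors belong to wider sets of genes, listed for this description and each gene counted once, by its brightest tested probe set. Of the 80 tested genes in 9 lists, 0 passed a limma adjusted p of 0.05, against 0.251% of 9578 named genes. At an unadjusted limma p under 0.05 there were 14, of which 8 were higher and 6 lower in vitro, a share of 17.5% beside 11.8% of all named genes. The median log2 difference was 0.02 in the lists and -0.02 over all named genes.

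Among pluripotency genes, 0 of 11 passed at either threshold, and the median log2 difference was 0.16. SALL4, a zinc finger partner of POU5F1, had 1584 ± 278 in vitro and 1277 ± 263 in vivo (SD, n = 4 each), with a log2 difference of 0.32. The orphan nuclear receptor gene NR5A2 had -0.57 (limma adjusted p = 0.722) and IFITM1 had 0.58 (0.669). NANOG, chosen after its values were seen, had 171 ± 32.5 in vitro and 210 ± 57.3 in vivo, with a log2 difference of -0.26. SOX2, the partner with which POU5F1 binds DNA, chosen in the same way, was too dim to be tested at all 3 of its probe sets.

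Of 16 trophectoderm genes, 0 passed, and 5 had an unadjusted limma p under 0.05, 2 higher and 3 lower in vitro, CDX2 being one of the lower. The share was 31.25%, beside 11.8% of all named genes, in a list chosen with earlier results known. PPARG, a nuclear receptor gene of placental development, read 198, 134, 111 and 81.8 in vitro, against 606, 210, 548 and 174 in vivo. The 2 high in vivo arrays, replicates 1 and 3, are those with the highest EEF1A1 ratio, and the log2 difference was -1.36 ± 0.38 (SE, limma adjusted p = 0.251). With that ratio as a covariate it was -1.61, and it passed (limma adjusted p = 0.0114). SATB1, a chromatin organiser, had 203 ± 21.4 in vitro and 354 ± 94.2 in vivo without overlap and a log2 difference of -0.75 (limma adjusted p = 0.262), while its other tested probe set had 0.08. MSX2, a homeobox gene, had 0.52 at its brightest probe set (limma adjusted p = 0.396), and its 3 others had 0.46, 0.10 and 0.33. The blood and immune marker sums given above were lower in vitro. Of the 5 tested markers of that list, 4 had a log2 difference below 0 and 1 above 0, with a median of -0.5. At an unadjusted limma p under 0.05 there were 0 of the 5. None of that list was above background on all 8 arrays, and the part of such cells was not tested.

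In the Hippo list, 0 of 24 passed and 3 had an unadjusted limma p under 0.05, all higher in vitro at their brightest probe sets. That is a share of 12.5%, beside 11.8% of all named genes. TAOK3, a kinase gene upstream of the pathway's core, had 2914 ± 230 in vitro and 2005 ± 385 in vivo without overlap and a log2 difference of 0.56, while its second probe set had 0.16. The core kinase gene STK3, above background on 2 of 4 in vivo arrays, had 0.95 and the upstream regulator gene WWC1 had 0.71, and none of these passed (limma adjusted p = 0.298, 0.427 and 0.470). YAP1, chosen after its values were seen, had 700 ± 128 in vitro and 709 ± 195 in vivo (SD, n = 4 each). VGLL4 of the same list, chosen in the same way, had a log2 difference of -0.02 at its brightest probe set. Its probe set MmugDNA.26473.1.S1_at, above background on 2 of 4 in vivo arrays, had 1.59 without overlap between the groups. That difference did not pass (limma adjusted p = 0.0914), and the remaining VGLL4 probe sets had -0.31 and -0.08.

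Of 6 tested genes in the list of AP-2 factors and partners, 0 passed. At an unadjusted limma p under 0.05 there were 2 (33.3%, beside 11.8% of all named genes), CITED1 higher and CITED2 lower in vitro. Partners of the AP-2 factors thus differed in direction. CITED1, a coactivator gene, read 52.7, 73.1, 63.9 and 47.8 in vitro, against 67.3, 2.2, 5.0 and 2.1 in vivo. In vivo replicate 1 lay among the in vitro arrays, and the other 3 in vivo arrays were not above background. With 1 of 4 in vivo arrays measured, the size of the difference depends on the 8.2 added to each signal and is not given, and CITED1 did not pass (limma adjusted p = 0.277). Without in vivo replicate 1 it was higher in vitro and passed (limma adjusted p = 0.0125), against in vivo arrays that were all not above background. CITED2, a coactivator that AP-2 proteins bind, had 57.3 ± 23.2 in vitro and 177 ± 109 in vivo, with a log2 difference of -1.38 (limma adjusted p = 0.306). Here in vivo replicate 2, at 58.1, lay among the in vitro arrays, and in vitro replicate 4, at 23.7, was not above background.

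Of 14 genes in the MYC, MAX and MXD network, 0 passed. At an unadjusted limma p under 0.05 there were 3 (21.4%, beside 11.8% of all named genes), FBXW7 higher and MYCL and MXD4 lower in vitro. FBXW7, a ubiquitin ligase subunit that marks MYC for degradation, had log2 differences of 0.44, 0.51 and 0.15 at its probe sets. MXD4, a MAX partner that represses transcription, had 149 ± 16.9 in vitro and 210 ± 19.7 in vivo without overlap and a log2 difference of -0.47, while the rest had 0.30 and -0.05. MXD3, of the same repressor group, had 0.41 and an unadjusted limma p of 0.0661. The limma adjusted p-values of FBXW7, MXD4 and MXD3 at the brightest probe set were 0.40, 0.455 and 0.523.

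Among 4 tested POU genes, 0 passed, and POU2F1 had a log2 difference of 0.41 (limma adjusted p = 0.476), POU3F1 -0.22 and POU1F1 -0.05. POU2F1 alone had an unadjusted limma p under 0.05, a share of 25% beside 11.8% of all named genes. Of 6 factors linked to genome activation, 0 passed at either threshold. The log2 difference was -0.10 for ZNF143 and, at its brightest probe set, -0.36 for SP1, whose 3 other tested probe sets had -0.40, 0.63 and -0.01. YY1 had 0.24 at its brightest probe set and -0.46 at the next, which disagree in sign. Primitive endoderm genes gave 0 of 4 at either threshold, with -0.58 for LAMA1 and -0.13 for GATA6. SOX7 was above background on 3 of 4 in vitro arrays and 1 of 4 in vivo arrays, and no size is given for it (limma adjusted p = 0.562).

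Genes whose array profile was most like that of a factor were found by Pearson's r over the 8 arrays among 9577 other named genes. For CDX2 they were PARD6G (r = 0.979, rho = 1) and GIT2 (r = 0.975). For TEAD4 they were FBXO25 (0.956) and TRIM31 (0.940), and for MYCL SMCR8 (0.957) and ZNF554 (0.935). POU5F1 was most like IQCB1 (0.968) and CWC25 (0.966), and TFAP2C most like RNF175 (0.971) and ATP2B1 (0.970). Between 9 genes for MYCL and 55 for CDX2 had an r over 0.9, and with 8 arrays and this many candidates such values describe the search only.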

How the data were processed

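Total RNA of pools of 4 oocytes was amplified in 2 rounds and labelled with biotin, per the labels' protocols. Linear intensity values were deposited by the authors. Per the submitters' processing notes they are MAS5 signals, and the software version is not given in the sources used here. Symbols come from the platform annotation, and the Entrez identifiers of all 8 probe sets were found in RefSeq (T2T-MMU8v2.0). No coordinates or sequences were used. From 52766 non-control probe sets, those above the 50th percentile of the mean log2(signal + 8.2) were tested (26383), where 8.2 is the 25th percentile of all signals. The contrast in vitro minus in vivo (4 arrays each) was fitted in R 4.3.3 by limma 3.58.1, using lmFit and eBayes with trend, and p-values were Benjamini-Hochberg adjusted over all tested probe sets, with a threshold of 0.05. The fit was tested on simulated data. All probe sets of the 5 genes are named, then their relatives, up to 3 further genes per list by unadjusted p, and the 2 most alike profiles. Members and lists were chosen with earlier results of these data known. Alternatives were other pseudocounts, filters, scalings, variance models, array weights, a replicate block, each array left out, and a control ratio as covariate. The number of arrays limits the precision.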

Additional observations from a re-analysis of the deposited data

How the results depend on the processing

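No probe set of the 5 factors passed a limma adjusted p of 0.05 under any alternative in which it was tested, and the brightest probe set of each kept its direction in all 19. The second CDX2 probe set ran from -0.51 to 0.08 with an array left out, the second TFAP2C probe set from -0.18 to 0.24 and the dim MYCL probe set from -0.60 to 0.09, on the log2 scale, and the signs turned there. The second CDX2 probe set was not tested under the upper-quarter filter. The 38 calls among all probe sets became 10 without the intensity trend, 88 with array weights, 292 with the EEF1A1 ratio (41.8% higher, against 71.1%), and 18 to 97 with an array left out. Without in vivo replicate 4, 45.4% of the 97 calls were higher. Calls in the 9 lists became 1 with that ratio (PPARG, also 1 in the trophectoderm list) and 1 without in vivo replicate 1 (CITED1, also 1 in the AP-2 list), and ranged from 0 to 1 with an array left out. The 2 granulosa calls became 0 without the trend and ranged from 1 to 2 with an array left out (STAR was lost without in vitro replicate 1, 2 or 3). HSD3B2 of that list, higher in vitro, was called as well with the EEF1A1 ratio and with the replicate number as a block (limma adjusted p = 0.0388 and 0.0355). The theca, stroma and endothelium list had 1 call with the EEF1A1 ratio. With the replicate number as a block, CDX2, TEAD4 and MYCL kept -0.91, -0.62 and -0.81 (limma adjusted p = 0.309, 0.594 and 0.439) and 43 probe sets passed. Same-numbered arrays did not deviate together (correlations of -0.05 to 0.02), and only in vitro replicate 1 correlated best with its own number. With 4 arrays per group this check cannot tell whether same-numbered pools share a source, and the labels name no donor animals. For dim probe sets, signal near background limits what can be seen. The cause of these changes was not tested.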
